A study of Mus musculus with 4 samples.

Results

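Classical monocytes are the Ly6c2-expressing monocytes of mouse blood, and here they were taken from single-cell RNA libraries of whole kidney as the barcodes that passed a gate on raw UMI counts (unique molecular identifiers, 1 per captured transcript molecule). A barcode was a member when it held at least 1 UMI of Ly6c2, at least 1 of Plac8 and at least 5 of Lyz2, fewer than 20 of C1qa, C1qb and C1qc together, and none of Cd3d, Cd3e, Cd3g, Cd79a, Cd209a or Retnlg. The barcode also had to hold at least 500 UMIs and 200 genes with at most 50% of UMIs on mitochondrially encoded genes. The gate left 329 members among 31041 barcodes that passed the quality limits, of 37041 deposited. The members were selected on the raw counts of the 12 genes of the gate, so their levels are given as a description and no call is read from them.

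Classical monocytes are made in the bone marrow, leave it by way of the chemokine receptor CCR2 and enter inflamed or injured tissue, where they can become macrophages or antigen-presenting cells. In blood they also give rise to non-classical monocytes, which lose Ly6C, depend on the nuclear receptor Nr4a1 and patrol vessel walls. In kidney they are a small population beside the resident macrophages, which express the complement genes of the C1q complex.

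The mutant kidneys came from 2 mice with a point mutation of the mitochondrial gene TrnE, which encodes the transfer RNA for glutamate, at a mutation load of 79% in trnE mutant 1 and 76% in trnE mutant 2. The kidneys of 2 wild-type (WT) C57BL/6J mice were the controls. The suspensions had been sorted for live cells without a step that enriched one cell type. Age, sex, litter and processing day of the mice were not stated in the labels, and the mutation itself cannot be read from these counts.

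The libraries of trnE mutant 1 and 2 held 65565948 and 70013861 UMIs, and those of WT 1 and 2 held 42121175 and 59946996 UMIs. Members were 82 and 109 barcodes in trnE mutant 1 and 2 and 120 and 18 in WT 1 and 2. The WT 2 library stood apart in its makeup: it held 51 macrophages past the same C1q limit, against 2618 and 1405 in trnE mutant 1 and 2 and 816 in WT 1. Any value that rests on WT 2 rests on those 18 monocytes. Between 14 and 26 barcode sequences recurred between any 2 libraries, and no member of one library was a member of another, while 2 members had a barcode sequence that also occurred in the other library of the trnE mutant 2 and WT 1 pair.

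The defining markers of classical monocytes that the gate did not use were present. Levels in this paragraph are CPM, counts per 1000000 UMIs of the class in each library. Ccr2, the receptor for monocyte exit from marrow, stood at 530 and 539 CPM in trnE mutant 1 and 2 and at 503 and 1054 CPM in WT 1 and 2, and 77.5% to 90.2% of members of a library held a UMI of it. Chil3, a secreted chitinase-like protein of marrow-derived monocytes, stood at 385 and 818 CPM in trnE mutant 1 and 2 and at 690 and 935 CPM in WT 1 and 2. Chil3 was far lower in neighbouring classes. In non-classical monocytes, gated as Ly6c2-negative barcodes with Ace or Treml4, it reached 20.9 and 94.9 CPM in the trnE mutants and 61.0 and 82.8 CPM in the WT libraries. In C1q macrophages it was at most 9.32 CPM, and in proximal tubule barcodes, which should lack it, at most 0.470 CPM. F13a1, the A chain of coagulation factor XIII, and Fn1, fibronectin, also marked the gate: F13a1 stood at 216 and 215 CPM in trnE mutant 1 and 2 and at 263 and 488 CPM in WT 1 and 2, with at most 10.8 CPM in non-classical monocytes.

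**Figure D1:**
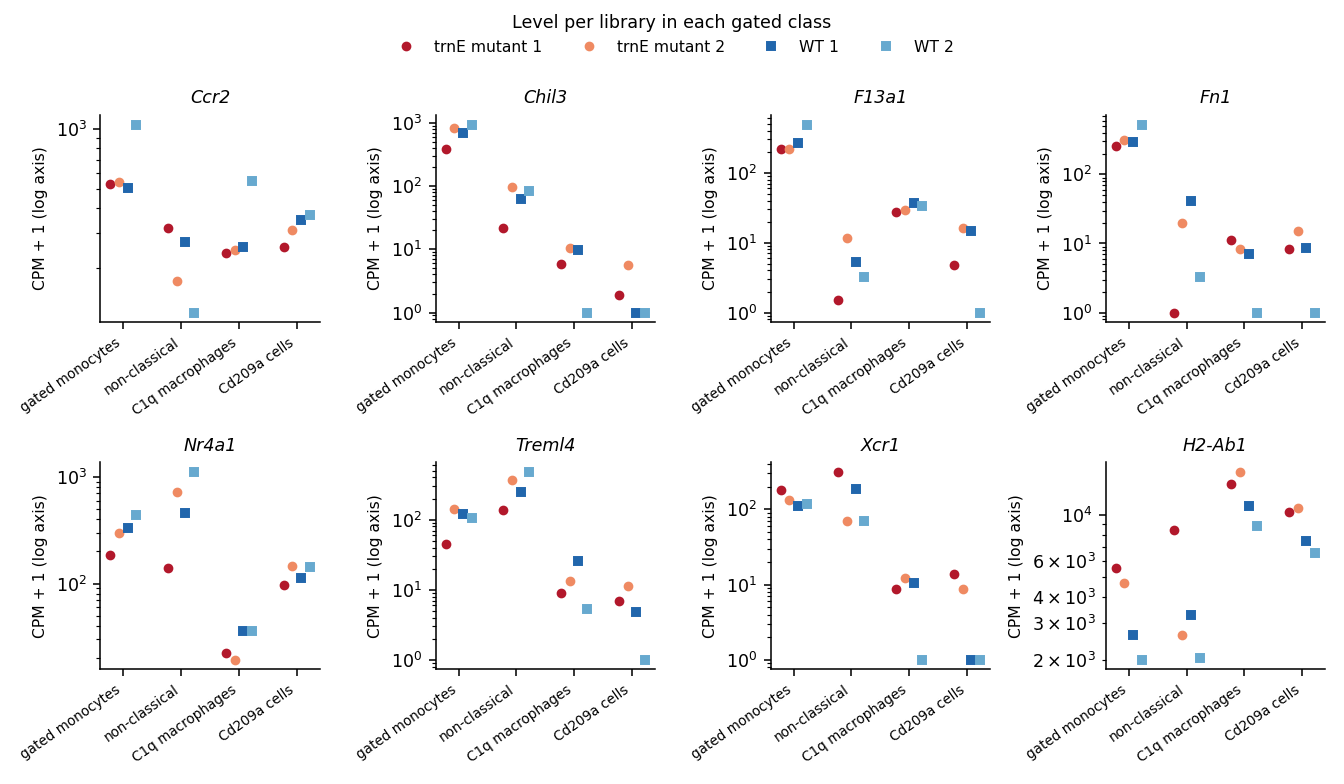
Level of 8 genes in 4 gated classes, 1 point per library (counts per 1000000 UMIs of the class plus 1, log axis; circles trnE mutant, squares WT). Chil3, F13a1 and Fn1 were highest in gated monocytes in all 4 libraries, Treml4 in non-classical monocytes, and Xcr1 was found in both of those classes.

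The gate held cells of more than one kind. A UMI of Ace or Treml4, genes of non-classical monocytes, was found in 46.3% and 68.8% of members of trnE mutant 1 and 2 and in 65.8% and 61.1% of members of WT 1 and 2. Those members had the lower Ly6c2 levels in every library: 394 and 600 CPM in trnE mutant 1 and 2 and 562 and 671 CPM in WT 1 and 2. Members with neither UMI had 1318 and 1479 CPM of Ly6c2 in the trnE mutants and 652 and 1032 CPM in the WT libraries. The members with Ace or Treml4 also carried more Nr4a1, the transcription factor that non-classical monocytes need, at 247 and 369 CPM in trnE mutant 1 and 2 and 397 and 622 CPM in WT 1 and 2. The members without had 121 and 123 CPM of Nr4a1 in the trnE mutants and 186 and 158 CPM in the WT libraries. Fn1 ran the other way, with 371 and 518 CPM in trnE members without Ace or Treml4 and 606 and 735 CPM in WT members without. Members with had 150 and 220 CPM of Fn1 in the trnE mutants and 149 and 385 CPM in the WT libraries. Within each of the 4 libraries, members with Ace or Treml4 had less Fn1 and more Nr4a1 than members without. Ly6c2 is a gene of the gate and its levels are a description. Some members with Treml4 had no Ace or Chil3 UMI and many of H2-Ab1, such as a cell of trnE mutant 1 with 3 Treml4 and 181 H2-Ab1 UMIs. The split therefore does not separate non-classical monocytes from the dendritic-marked members described next, and the overlap was not counted.

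A second group inside the gate went against the label. Members with a UMI of Xcr1 or Clec9a, which are surface receptors of type 1 dendritic cells, numbered 28 and 20 in trnE mutant 1 and 2 (34.1% and 18.3% of members) and 22 and 4 in WT 1 and 2 (18.3% and 22.2%). In these members Irf8, a transcription factor that type 1 dendritic cells require, stood at 1239 and 1487 CPM in the trnE mutants and at 1274 and 1489 CPM in the WT libraries. In the remaining members Irf8 stood at 136 and 138 CPM in the trnE mutants and 265 and 275 CPM in the WT libraries. Chil3 was nearly absent from the members with Xcr1 or Clec9a, at 8.24 and 2.22 CPM in trnE mutant 1 and 2 and at 87.3 and 102 CPM in WT 1 and 2. In the remaining members it was 762 and 1171 CPM in the trnE mutants and 936 and 1220 CPM in the WT libraries, so the monocyte marker and the dendritic markers sat largely in different cells of the gate. The median member with Xcr1 or Clec9a held 17006.5 and 22865 UMIs in trnE mutant 1 and 2 and 16710.5 and 17571.5 in WT 1 and 2. The remaining members had medians of 8664 and 11571 UMIs in the trnE mutants and 8587 and 14373 in the WT libraries. A split on 1 UMI depends on depth, so shallower cells of this kind can lie among the remaining members. In tubule barcodes, which should lack both genes, Xcr1 was found in at most 0.271% and Clec9a in at most 0.659%. The gate without them was added after the values were seen, and values without them are given for the MHC class I and II, mitochondrial and classical monocyte genes.

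**Figure D2:**
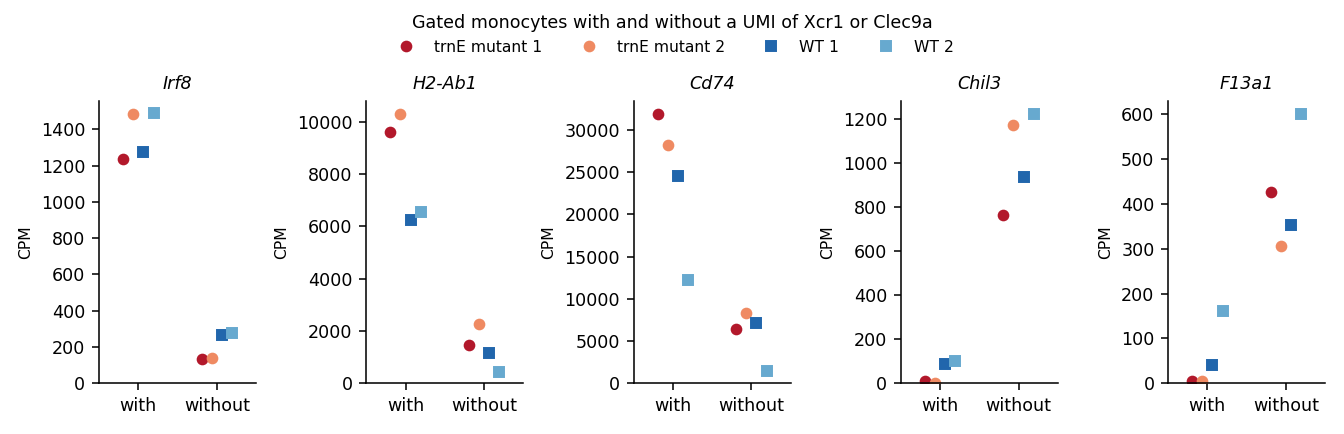
Levels of 5 genes (counts per 1000000 UMIs) in gated monocytes with and without a UMI of Xcr1 or Clec9a, 1 point per library (circles trnE mutant, squares WT). Irf8, H2-Ab1 and Cd74 were higher with these UMIs and Chil3 and F13a1 higher without them, in all 4 libraries.

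Just inside the limit of the gate, the members with exactly 1 Ly6c2 UMI numbered 20 and 25 in trnE mutant 1 and 2 and 34 and 2 in WT 1 and 2. Their Chil3 level was 90.3 and 329 CPM in the trnE mutants and 291 CPM in WT 1, and the 2 such cells of WT 2 had none. The barcodes just outside, which met every other condition and had no Ly6c2 UMI, numbered 190 and 245 in trnE mutant 1 and 2 and 219 and 48 in WT 1 and 2, and their Chil3 level was 17.4 and 101 CPM in the trnE mutants and 79.4 and 80.2 CPM in the WT libraries.

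The share of kidney barcodes that passed the gate, dendritic-marked and Ace or Treml4 members included, did not separate the groups. Members made up 0.839% (95% exact binomial interval 0.668 to 1.04%) of kept barcodes in trnE mutant 1 and 1.20% (0.988 to 1.45%) in trnE mutant 2. They made up 2.08% (1.73 to 2.48%) in WT 1 and 0.280% (0.166 to 0.442%) in WT 2. The mean was 1.02 ± 0.256% in trnE mutant kidneys and 1.18 ± 1.27% in WT kidneys (SD, n = 2 each), a difference of -0.160 percentage points with p = 1 in a two-sided exact permutation test over libraries. With 2 mice against 2 that test cannot go below 0.333. Both WT kidneys lay outside the range of the trnE mutant kidneys, WT 1 above and WT 2 below. The direction turned to 0.0214 percentage points without trnE mutant 1 and to 0.740 without WT 1. The intervals cover counting error only.

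Against the other barcodes rich in Lyz2 the order was different. Of barcodes with at least 5 Lyz2 UMIs and no T or B cell gene of the gate, members were 2.76% and 5.73% in trnE mutant 1 and 2 and 10.0% and 14.2% in WT 1 and 2. Both trnE mutant shares lay below both WT shares, with a mean difference of -7.85 percentage points (exact permutation test, p = 0.333, the smallest value this design allows). That denominator held 2973 and 1901 barcodes in the trnE mutants and 1198 and 127 in the WT libraries. A Lyz2 UMI was also found in proximal tubule barcodes, in 29.2% and 30.4% of them in trnE mutant 1 and 2 and in 9.56% and 6.60% in WT 1 and 2. C1q macrophages are not excluded from this denominator, and they differed in number between the libraries as given above. Neither their part in it nor the part of Lyz2 RNA from other cells was tested. Of barcodes with a UMI of the pan-leukocyte gene Ptprc, members were 1.55% and 1.73% in trnE mutant 1 and 2 and 4.38% and 0.705% in WT 1 and 2. With that denominator both trnE mutant shares lay between the WT shares.

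**Figure D3:**
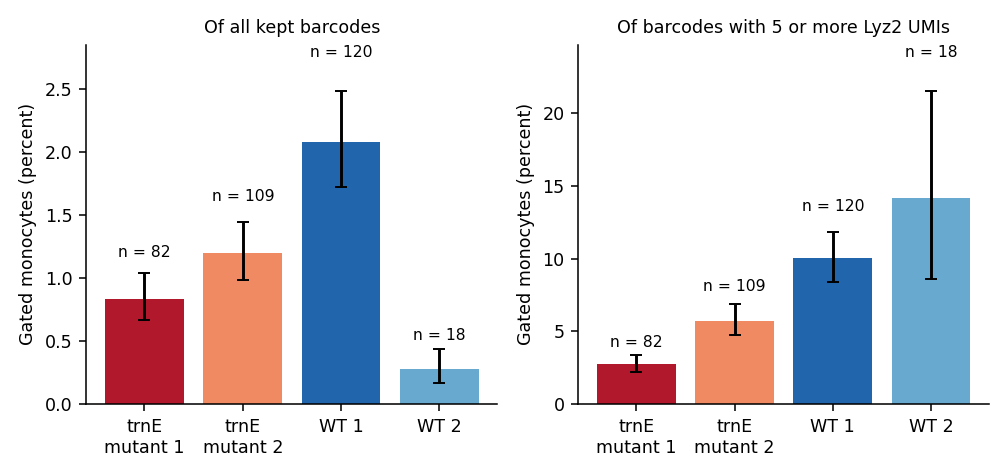
Gated monocytes as a percent of all kept barcodes (left) and of barcodes with at least 5 Lyz2 UMIs (right), 1 bar per library with its 95% exact binomial interval, and the number of members above each bar. The trnE mutant shares fall between the 2 WT shares on the left (0.839% and 1.20% against 2.08% and 0.280%) and below both on the right.

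The groups overlapped in the depth of the median member and in its mitochondrial share. The median member held 10275.5 and 12392 UMIs in trnE mutant 1 and 2 and 9259.5 and 14838.5 UMIs in WT 1 and 2 (exact permutation test, p = 1). The median share of a member's UMIs on mitochondrially encoded genes was 0.979% and 1.75% in trnE mutant 1 and 2 and 1.24% and 1.69% in WT 1 and 2, a mean difference of -0.0971 percentage points (exact permutation test, p = 1). Both WT values lay between the trnE mutant values. Pooled over the members of a library, the share was 1.61% and 2.32% in trnE mutant 1 and 2 and 2.48% and 2.52% in WT 1 and 2, where both trnE mutants lay below both WT libraries (difference -0.531 percentage points, exact permutation test, p = 0.333). Without the members that hold Xcr1 or Clec9a the difference in the median share was 0.0265 percentage points. The pooled share there was 2.46% and 2.63% in trnE mutant 1 and 2, between the 2.21% and 2.84% of WT 1 and 2. Without members that hold Flt3, Clec10a, Siglech or Nkg7 the pooled share was 2.49% and 2.41% in the trnE mutants, above the 1.62% and 2.01% of WT 1 and 2.

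For gene expression, the UMIs of all members of a library were summed and the sums compared between genotypes with edgeR's quasi-likelihood test. Values per gene from here on are TMM-scaled CPM, counts per 1000000 UMIs with the library size corrected for composition, and fold changes are log2 of trnE mutant over WT. Of 8148 genes tested outside the gate, 0 passed a Benjamini-Hochberg adjusted p of 0.05 (0.0%), with 358 (4.39%) under an unadjusted p of 0.05. DESeq2 also called 0 genes, with 135 under an unadjusted 0.05. For 20.7% of the genes both trnE mutant values lay above both WT values, and for 20.4% both lay below. The median gene differed by 0.01 on the log2 scale (-0.20 when scaled to library totals). No gene named here passed the threshold, and the values below describe these 4 libraries. Leaving out WT 1 gave 24 genes higher and 11 lower at an adjusted p of 0.05, leaving out trnE mutant 1 gave 4 higher, and leaving out WT 2 gave 1 lower.

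The genes of antigen presentation on MHC class II had the highest median fold change of the lists of monocyte functions. MHC class II molecules are pairs of an alpha and a beta chain that load peptides with the help of the invariant chain Cd74 and the H2-DM proteins and show them to CD4 T cells, and classical monocytes express them as they turn into antigen-presenting cells in tissue. All 13 tested genes of the list had a positive fold change, 11 of 13 had both trnE mutant values above both WT values (20.7% of all genes), 0 passed the threshold, and the median was 1.17 on the log2 scale (0.01 over all genes tested). The range of the list median over 21 other settings was 0.64 to 1.43. With the replicate number of the labels as a block, for which the labels give no basis, 9 genes of the list passed the threshold, where 0.847% of all 8148 genes passed it as higher and 0.798% as lower.

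Most of these genes lie in the MHC locus on chromosome 17, and their promoters share an arrangement of short boxes at which the regulator complex organised by Ciita acts. The stretches below are shown because these genes had their values on the same side in both trnE mutant kidneys. They are the promoter sequences of 6 list genes from RefSeq (build GRCm38.p6), 100 bases each, printed 5′ to 3′ on the strand of the gene, with the letters TGATTGG, the core of the Y box, in capitals. These letters were searched on both strands in a window from 250 bases before to 50 after the gene start, where 6 of the 8 list genes with an entry held them, as did 9.0% of the 27025 genes with an entry.
H2-Oa, chr17:34092269-34092368, plus strand: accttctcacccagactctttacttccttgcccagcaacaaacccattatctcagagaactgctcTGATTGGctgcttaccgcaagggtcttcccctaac
H2-DMb2, chr17:34145092-34145191, plus strand: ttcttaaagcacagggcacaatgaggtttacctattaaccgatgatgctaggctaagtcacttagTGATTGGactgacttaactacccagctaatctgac
H2-DMb1, chr17:34153063-34153162, plus strand: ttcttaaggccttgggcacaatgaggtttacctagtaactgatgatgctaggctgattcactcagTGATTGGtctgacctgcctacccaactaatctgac
H2-Ob, chr17:34238781-34238880, plus strand: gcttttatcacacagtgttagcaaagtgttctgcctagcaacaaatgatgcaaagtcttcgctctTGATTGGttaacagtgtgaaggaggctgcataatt
H2-Aa, chr17:34287839-34287938, minus strand: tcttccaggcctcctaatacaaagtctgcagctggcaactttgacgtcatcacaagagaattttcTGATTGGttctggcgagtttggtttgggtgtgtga
H2-Eb1, chr17:34305741-34305840, plus strand: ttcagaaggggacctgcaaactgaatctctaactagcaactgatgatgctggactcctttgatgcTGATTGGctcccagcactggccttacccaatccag

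The first base of the capitals lies between 92 and 45 bases before the gene start in these genes. A match of letters describes these windows and says nothing about binding of a factor in the monocytes.

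H2-Ab1, the beta chain of the I-A molecule (GRCm38 chromosome 17, 34257689 to 34269419, plus strand), stood at 6740 and 4715 TMM-scaled CPM in trnE mutant 1 and 2 and at 2560 and 1802 in WT 1 and 2. The mean was 5727 ± 1432 in trnE mutant kidneys and 2181 ± 536 in WT kidneys (SD, n = 2 each), with a log2 fold change of 1.39 (SE 0.43, edgeR adjusted p = 0.832). Both trnE mutant values lay above both WT values. H2-Aa, its alpha chain partner, stood at 8746 and 5347 TMM-scaled CPM in trnE mutant 1 and 2 and at 3902 and 2104 in WT 1 and 2 (log2 fold change 1.23, SE 0.46, edgeR adjusted p = 0.832). H2-Eb1, the beta chain of I-E, stood at 5858 and 3824 TMM-scaled CPM in the trnE mutants and 2528 and 1755 in the WT libraries, with a log2 fold change of 1.17. The invariant chain Cd74 stood at 23298 and 14413 TMM-scaled CPM in trnE mutant 1 and 2 and 11784 and 3747 in WT 1 and 2. For each of the chains the order of libraries was the same: trnE mutant 1, trnE mutant 2, WT 1, WT 2.

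The peptide-loading genes H2-DMa and H2-DMb1 showed the same order of libraries. H2-DMa stood at 889 and 654 TMM-scaled CPM in trnE mutant 1 and 2 and 417 and 295 in WT 1 and 2, and H2-DMb1 at 962 and 685 in the trnE mutants and 421 and 278 in the WT libraries. H2-DMb2, its close copy, had 57.7 and 46.6 TMM-scaled CPM in the trnE mutants and 23.8 and 10.1 in the WT libraries. In the last 500 bases of their transcripts, 27.4% of the 50-base stretches of H2-DMb1 also occur in H2-DMb2, so their counts are not fully separate. H2-Oa and H2-Ob encode the chains of an inhibitor of H2-DM that B cells and some dendritic cells express: H2-Oa had 176 and 78.3 TMM-scaled CPM in the trnE mutants and 48.4 and 50.3 in the WT libraries. The regulator Ciita and the costimulatory genes Cd86 and Cd40 stood closer together, with log2 fold changes of 0.29, 0.37 and 0.10. Ctss, the protease cathepsin S that trims the invariant chain, differed by 0.33.

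**Figure D4:**
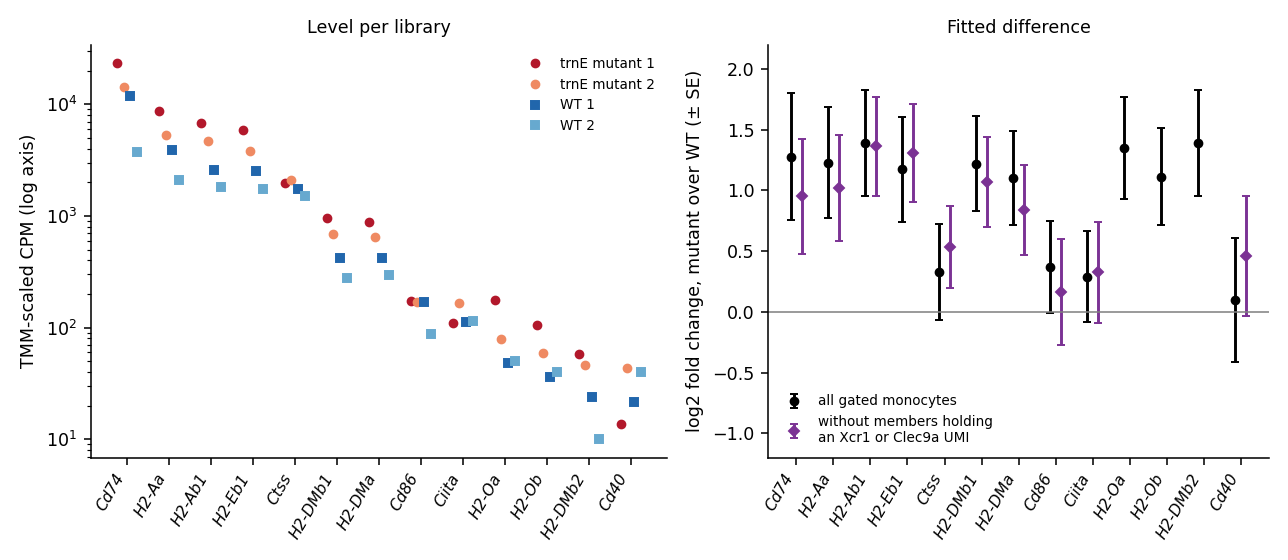
The 13 tested MHC class II list genes in gated monocytes: TMM-scaled CPM per library on a log axis (left; circles trnE mutant, squares WT) and the fitted log2 fold change with its SE for all gated monocytes and for those without an Xcr1 or Clec9a UMI (right; 3 genes have no value there because their counts were under the filter). For 11 of the genes both trnE mutant points lie above both WT points, and all fold changes are above 0.

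The MHC class II transcripts were unevenly spread over members. For H2-Ab1 per 10000 UMIs of a cell, the median member had 5.62 and 5.79 in trnE mutant 1 and 2 and 2.04 and 0.331 in WT 1 and 2, while the upper quartile reached 94.4 and 62.6 in the trnE mutants and 35.3 and 10.1 in the WT libraries. In WT 2 the 3 highest cells held 91.8% of the H2-Ab1 UMIs of its members. The members with an Xcr1 or Clec9a UMI held 86.7% and 66.5% of all H2-Ab1 UMIs in trnE mutant 1 and 2 and 68.7% and 83.6% in WT 1 and 2.

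Without those members, and on the scale of plain CPM, H2-Ab1 stood at 1470 and 2253 in trnE mutant 1 and 2 and at 1163 and 440 in WT 1 and 2. Its log2 fold change in that gate was 1.36 (SE 0.41, edgeR adjusted p = 0.889). H2-Eb1 differed by 1.31 and H2-Aa by 1.02 on the log2 scale there. Of the 10 list genes left in the test, 10 had a positive fold change and the list median was 0.89 (0.02 over all genes tested in that gate). In this gate, too, both trnE mutant levels of H2-Ab1 lay above both WT levels. Without members that hold Flt3, Clec10a, Siglech or Nkg7 instead, the list median was 0.64, the lowest of the other settings. There H2-Ab1 differed by 1.19, H2-Aa and H2-Eb1 by 0.82 each and H2-DMb1 by 0.43 on the log2 scale, and Ciita was at -0.096.

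H2-Ab1 UMIs were also found in barcodes of another cell type. In proximal tubule barcodes (at least 2 UMIs of the phosphate transporter Slc34a1 and none of Ptprc, the pan-leukocyte gene, or of the T and B cell genes of the gate), which are not professional antigen-presenting cells, H2-Ab1 stood at 356 and 304 CPM in trnE mutant 1 and 2 and 77.0 and 31.1 CPM in WT 1 and 2, and 59.8% and 62.0% of those barcodes in the trnE mutants and 25.5% and 21.6% in the WT libraries held a UMI. Their median depth was 5575 and 4301 UMIs in the trnE mutants and 5003 and 6539 in the WT libraries. The share of members with an H2-Ab1 UMI was 91.5% and 89.9% in trnE mutant 1 and 2 and 65.0% and 50.0% in WT 1 and 2, at the median member depths given above. After thinning each cell to 1500 UMIs it was 57.3% and 56.0% in the trnE mutants and 45.8% and 22.2% in the WT libraries. C1qa, a macrophage gene that the gate limits and that is therefore a description, was found in 36.6% and 28.4% of members of the trnE mutants, in 5.83% of members of WT 1 and in 0 of 18 members of WT 2, which allows a share of up to 16.7%, beside 27.0% and 18.4% of tubule barcodes in the trnE mutants and 6.10% and 0.943% in the WT libraries. The part of RNA from other cells in the MHC class II difference was not tested.

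C1q macrophages of the same kidneys had higher H2-Ab1 levels than the monocytes, while H2-Oa was lower in them. H2-Oa stood at 30.5 and 23.7 CPM in macrophages of trnE mutant 1 and 2 and at 45.5 and 21.7 CPM in those of WT 1 and 2. The members had 176 and 78.3 TMM-scaled CPM of H2-Oa in the trnE mutants and 48.4 and 50.3 in the WT libraries. H2-Ab1 stood at 14045 and 16084 CPM in macrophages of trnE mutant 1 and 2 and at 11044 and 8804 CPM in those of WT 1 and 2. The change of monocytes minus the change of macrophages, tested as an interaction with library as a block, was 0.48 on the log2 scale for H2-Ab1 (SE 0.38, edgeR adjusted p = 1). For H2-Oa it was 1.58 (SE 0.38, edgeR adjusted p = 0.843), and without members that hold Xcr1 or Clec9a H2-Oa was under the count filter in monocytes. Over 9954 genes outside the gate, the interaction test called 0 genes at an adjusted p of 0.05 (0.0%), with 305 (3.06%) under an unadjusted 0.05, and DESeq2 called 0 with 99. Without 1 library it called up to 20 genes higher (without trnE mutant 2 or without WT 2) and up to 9 lower (without WT 2), and without trnE mutant 1 it called 12 higher and 1 lower.

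Most of the genes of smallest p in that interaction rested on few cells. Gzma, a granule protease of killer lymphocytes, had 0 and 130 UMIs in members of trnE mutant 1 and 2 and 0 in members of either WT library, and 127 of the 130 were in 1 cell (adjusted p = 0.279, edgeR). Nkg7, another killer lymphocyte gene, had 2 and 70 UMIs in the trnE mutants and 2 and 0 in the WT libraries, with 49 of the 70 in 1 cell (edgeR adjusted p = 0.327). Umod, the uromodulin of the loop of Henle, had 7 and 8 UMIs in members of the trnE mutants and 152 and 3 in members of the WT libraries, 142 of them in 1 cell of WT 1 (edgeR adjusted p = 0.279). Plvap, a gene of fenestrated endothelium, had 74 and 144 UMIs in members of the trnE mutants and 46 and 0 in those of the WT libraries (edgeR adjusted p = 0.292). The 3 highest cells held 95.9% of the Plvap UMIs in trnE mutant 1 and 95.1% in trnE mutant 2. The predicted gene Gm36723 completes the list at an adjusted p of 0.299 (edgeR). It had 104 and 114 UMIs in members of the trnE mutants and 98 and 10 in those of the WT libraries, and its spread over cells was not examined.

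MHC class I genes, which present peptides to CD8 T cells, had smaller differences. Of 14 tested genes, 13 had a positive fold change, 9 had both trnE mutant values above both WT values (20.7% of all genes), 0 passed the threshold and the median was 0.35, which was 0.12 without trnE mutant 2. Psmb9 and Psmb8, subunits of the immunoproteasome that cuts peptides for class I, led the list. Psmb9 stood at 770 and 359 TMM-scaled CPM in trnE mutant 1 and 2 and 341 and 191 in WT 1 and 2, and Psmb8 at 1157 and 724 in the trnE mutants and 664 and 399 in the WT libraries. Their log2 fold changes were 1.05 and 0.81 (edgeR adjusted p = 0.832 for each), and 0.43 and 0.62 without members that hold Xcr1 or Clec9a. H2-T23, a non-classical class I chain, differed by 0.75.

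Type I interferon response genes were evenly split. Of 38 tested type I interferon response genes 19 had a positive fold change, with both trnE mutant values above both WT values for 8 and below for 9, near the shares of all genes (20.7% and 20.4%), and a median of -0.01. Without members that hold Ace or Treml4 that median was 0.37. Ifih1, the sensor of long double-stranded RNA also called MDA5, stood at 28.8 and 44.6 TMM-scaled CPM in trnE mutant 1 and 2 and 63.0 and 104 in WT 1 and 2 (log2 fold change -1.08). Isg20, an exonuclease, went the other way at 52.7 and 46.6 in the trnE mutants and 28.4 and 16.8 in the WT libraries (log2 fold change 0.99). Neither passed the test (edgeR adjusted p = 0.832 for each). Of 17 interferon gamma response genes 13 were positive with a median of 0.34, and that median was -0.19 without trnE mutant 2.

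Mitochondrial transcripts are the ones most directly tied to the mutated organelle genome. Of the 12 mitochondrially encoded protein genes tested, 2 had a positive fold change, 1 had both trnE mutant values above both WT values and 4 had both below (20.7% and 20.4% of all genes), 0 passed the threshold, and the median was -0.19. The lowest was mt-Nd3, a subunit of complex I, at 129 and 124 TMM-scaled CPM in trnE mutant 1 and 2 and 223 and 453 in WT 1 and 2 (log2 fold change -1.39, SE 0.40, edgeR adjusted p = 0.786). For mt-Nd3 the groups did not overlap, and in C1q macrophages of the same kidneys it stood at 150 and 197 CPM in trnE mutant 1 and 2 and 264 and 1283 CPM in WT 1 and 2. The abundant subunits of complex IV were close between genotypes: mt-Co1 stood at 3429 and 4331 TMM-scaled CPM in trnE mutant 1 and 2 and 4357 and 3714 in WT 1 and 2, and mt-Co2 at 3232 and 3861 in the trnE mutants and 3305 and 3291 in the WT libraries. mt-Co1, mt-Co2 and mt-Co3 had log2 fold changes of -0.06, 0.10 and -0.12. mt-Nd5 was the other gene with a positive value, at 278 and 394 in the trnE mutants and 240 and 265 in the WT libraries (log2 fold change 0.42). This direction depended on which cells were in the gate: without members that hold Xcr1 or Clec9a 10 of the 12 genes were positive with a median of 0.19, and mt-Nd3 was at -1.02. Without members that hold Flt3, Clec10a, Siglech or Nkg7 the median was 0.68, mt-Co2 was at 0.80 (SE 0.34, edgeR adjusted p = 0.885) and mt-Nd3 at -0.49.

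Nuclear genes of the respiratory chain, which encode the remaining subunits of the same complexes, were mostly on the positive side. Of 75 tested genes 74 had a positive fold change, 34 had both trnE mutant values above both WT values (20.7% of all genes), 0 passed the threshold and the median was 0.51. All 37 genes of complex I were positive with a median of 0.51, and their summed level was 8791 and 5428 TMM-scaled CPM in trnE mutant 1 and 2 and 5639 and 4130 in WT 1 and 2. Complex II had 3 of 4 positive. The 9 genes of complex III, the 11 of complex IV and the 14 of ATP synthase were also all positive, with medians of 0.48, 0.49 and 0.63. WT 1 lay above trnE mutant 2 in the summed level of complexes I and III, and for complexes II and IV and ATP synthase both trnE mutant sums lay above both WT sums. Atp5g2, a subunit of the ATP synthase ring, had the smallest p of the list, at 777 and 472 TMM-scaled CPM in the trnE mutants and 451 and 228 in the WT libraries (log2 fold change 0.85, edgeR adjusted p = 0.832). The list median was 0.17 without trnE mutant 1 and 0.82 without WT 1, and 0.51 without members that hold Xcr1 or Clec9a.

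Genes of glycolysis and hypoxia had a median of 0.38, with 18 of 24 positive and 11 above in both trnE mutants (20.7% of all genes). Ldha, lactate dehydrogenase A, stood at 402 and 390 TMM-scaled CPM in trnE mutant 1 and 2 and 271 and 168 in WT 1 and 2, and Tpi1, triosephosphate isomerase, at 181 and 159 in the trnE mutants and 109 and 60.4 in the WT libraries. Neither passed the test (log2 fold changes 0.82 and 0.93, edgeR adjusted p = 0.832 for each). The median stayed positive in all 21 other settings. Genes of the integrated stress response, the programme that a failing mitochondrial translation can switch on in other cell types, had a median of 0.15, with 9 of 14 positive, and that median was -0.07 without trnE mutant 2. Slc3a2, the heavy chain of amino acid transporters, had the smallest p there, at 90.3 and 90.5 TMM-scaled CPM in the trnE mutants and 58.4 and 47.0 in the WT libraries.

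For the genes that define classical monocytes the fold changes were mostly small. Of 18 tested genes outside the gate, 5 had a positive fold change and the median was -0.20. Without members that hold Xcr1 or Clec9a, 13 were positive and the median was 0.08. Ccr2 stood at 646 and 542 TMM-scaled CPM in trnE mutant 1 and 2 and 488 and 949 in WT 1 and 2 (log2 fold change -0.26, SE 0.40, edgeR adjusted p = 0.902), and Chil3 at 469 and 823 in the trnE mutants and 669 and 842 in the WT libraries (log2 fold change -0.22, SE 0.39, edgeR adjusted p = 0.914). The widest differences of the list were in Mcemp1, a membrane protein of myeloid cells, and Il17ra, the receptor chain for interleukin 17. Mcemp1 had 128 and 165 TMM-scaled CPM in trnE mutant 1 and 2 and 66.1 and 70.5 in WT 1 and 2 (log2 fold change 1.11), and Il17ra had 65.2 and 136 in the trnE mutants and 151 and 252 in the WT libraries (log2 fold change -0.95). Neither passed the test (edgeR adjusted p = 0.832 for each). Non-classical genes had a median of -0.13, with 7 of 16 positive, and that median was -0.82 without trnE mutant 2 and 0.25 without trnE mutant 1. Cx3cr1, the fractalkine receptor of patrolling monocytes, stood at 118 and 168 TMM-scaled CPM in the trnE mutants and 166 and 282 in the WT libraries.

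Several genes of the inflammatory and early response lists had higher values in both trnE mutants, and some of them rested on a few cells. Cd14, the lipopolysaccharide co-receptor, stood at 218 and 239 TMM-scaled CPM in trnE mutant 1 and 2 and 90.0 and 47.0 in WT 1 and 2 (log2 fold change 1.65, SE 0.39, edgeR adjusted p = 0.436). Ier3, an early response gene downstream of NF-kB, stood at 38.9 and 29.0 in the trnE mutants and 6.92 and 3.35 in the WT libraries (log2 fold change 2.44, SE 0.56, edgeR adjusted p = 0.436). Both genes had non-overlapping groups. Ccl2, the ligand of CCR2, stood at 132 and 27.7 in trnE mutant 1 and 2 and 16.1 and 3.35 in WT 1 and 2 (log2 fold change 2.58, edgeR adjusted p = 0.436), but 3 cells held 81.0% of its UMIs in trnE mutant 1 and 92.7% in trnE mutant 2. Ccl5, a chemokine of T and NK cells, stood at 30.1 and 337 in the trnE mutants and 33.8 and 16.8 in the WT libraries, with 427 of the 499 UMIs of trnE mutant 2 in 1 cell. Ccl3, the chemokine MIP-1 alpha, had 176 and 52.0 in the trnE mutants and 36.1 and 0 in the WT libraries. For Ccl3, too, 3 cells held 68.6% of the UMIs in trnE mutant 1 and 81.8% in trnE mutant 2. Of 32 tested genes of the inflammatory list 20 were positive, 0 passed the threshold and the median was 0.28, which was -0.44 without trnE mutant 2.

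Of the macrophage differentiation genes, 12 of 19 were positive, 9 were above in both trnE mutants and 0 below (20.7% and 20.4% of all genes), with a median of 0.50. The tetraspanin Cd81 stood at 233 and 103 TMM-scaled CPM in trnE mutant 1 and 2 and 103 and 53.7 in WT 1 and 2. Mrc1, the mannose receptor, had 23.8 and 10.1 in the trnE mutants and 3.08 and 6.71 in the WT libraries. Neither passed the test (edgeR adjusted p = 0.832 for each), and the list median was 0.03 without WT 2 and 1.18 without WT 1. The summed level of the 10 macrophage markers, which include the C1q genes of the gate, was 2637 and 2912 TMM-scaled CPM in members of trnE mutant 1 and 2 and 2093 and 1433 in members of WT 1 and 2. Of the 6 of them that were tested outside the gate, 4 were positive and 4 lay above in both trnE mutants. Their part in these values was not tested.

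Receptors for migration and adhesion had a median of -0.22, with 7 of 23 positive, and 5 above and 5 below in both trnE mutants, near the shares of all genes (20.7% and 20.4%). The chemokine receptor Ccr1 was on the positive side, at 46.4 and 43.2 TMM-scaled CPM in trnE mutant 1 and 2 and 19.99 and 13.4 in WT 1 and 2. Itga4, the alpha 4 integrin that holds monocytes on vessel walls, was on the negative side at 216 and 325 in the trnE mutants and 412 and 527 in the WT libraries (log2 fold changes 1.30 and -0.78; edgeR adjusted p = 0.832 for each). Zeb2, a transcription factor of monocyte identity, stood at 446 and 956 in trnE mutant 1 and 2 and 1246 and 1349 in WT 1 and 2 (log2 fold change -0.88).

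Phagocytic, Fc and complement genes had a median of 0.23 with 16 of 20 positive, antimicrobial genes 0.53 with 6 of 9, repair and fibrosis genes 0.27 with 9 of 13, and iron and heme genes 0.26 with 5 of 9. Without trnE mutant 2 the medians of the phagocytic, repair and iron lists were -0.02, -0.13 and -0.20. Lyz1, a lysozyme mainly of Paneth cells, had 17.6 and 51.3 TMM-scaled CPM in the trnE mutants and 6.92 and 0 in the WT libraries. Of its 76 UMIs in trnE mutant 2, 67 were in 1 cell. Its transcript end shares 17.7% of its 50-base stretches with Lyz2, so its counts cannot be fully told from those of Lyz2. Cybb, the catalytic chain of the phagocyte oxidase, stood at 534 and 758 in trnE mutant 1 and 2 and 860 and 1416 in WT 1 and 2 (log2 fold change -0.81, edgeR adjusted p = 0.832). Thbs1, thrombospondin 1 of the repair list, stood at 60.2 and 164 in the trnE mutants and 49.2 and 10.1 in the WT libraries (log2 fold change 1.67, edgeR adjusted p = 0.816). Hmox1, heme oxygenase 1, was at 66.5 and 115 in the trnE mutants and 434 and 47.0 in the WT libraries, with 215 of the 565 UMIs of WT 1 in 1 cell, and its log2 fold change of -1.47 became 0.98 without WT 1.

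Cell cycle genes showed how few cells can set a list. Of 13 tested genes 11 were positive with a median of 0.64, which became -0.66 without trnE mutant 1 and 1.74 without trnE mutant 2. Stmn1, a microtubule regulator of dividing cells, had 288 and 15.5 TMM-scaled CPM in trnE mutant 1 and 2 and 54.6 and 6.71 in WT 1 and 2, with 83.9% of the UMIs of trnE mutant 1 in 3 cells. Mki67, a marker of cycling cells, was found in 5 and 1 members of the trnE mutants and in 8 and 2 members of the WT libraries. Lipid handling genes had a median of -0.12 with 10 of 21 positive, immediate early and heat shock genes 0.15 with 14 of 25, and progenitor genes 0.14 with 5 of 9.

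**Figure D5:**
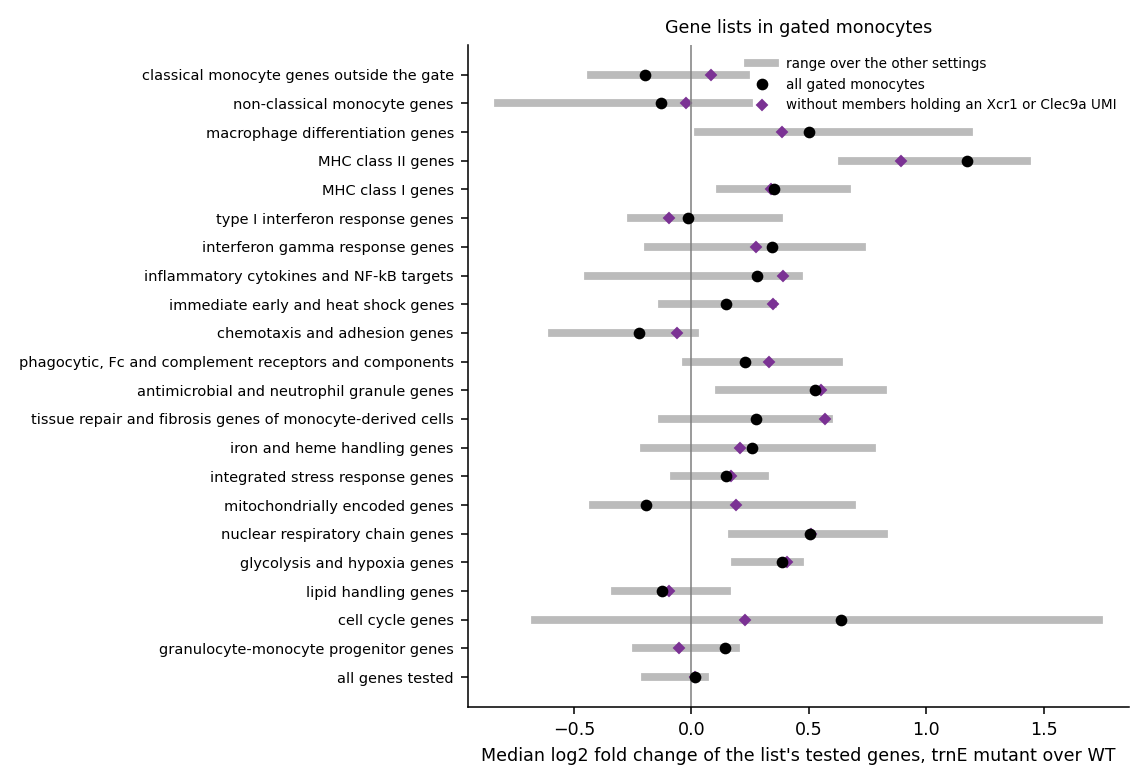
Median log2 fold change (trnE mutant over WT) of the tested genes of each list in gated monocytes, with the range over 21 other settings (grey), and the value without members holding an Xcr1 or Clec9a UMI (diamonds). MHC class II genes lie farthest from 0 at 1.17, against 0.01 for all genes tested.

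Among the remaining genes of smallest p with non-overlapping groups, the higher ones were Tuba1b and Tubb2a, tubulin chains, Lmna, the nuclear lamin A, Dnase1l3, a secreted DNase that dendritic cells make and that was under the count filter without members holding Xcr1 or Clec9a, Serpinb6b, a protease inhibitor, and Plvap. Tuba1b stood at 451 and 177 TMM-scaled CPM in trnE mutant 1 and 2 and 120 and 63.7 in WT 1 and 2, and Dnase1l3 at 70.2 and 44.6 in the trnE mutants and 20.8 and 6.71 in the WT libraries. Their log2 fold changes lay between 1.53 and 1.96 (edgeR adjusted p from 0.534 to 0.816). The lower ones were Umod, mt-Nd3, Bach2, Fam13b, Foxk1, Camkk2, Hpse, Klhl24, Lrmda and Arhgap39. Bach2, a transcriptional repressor of lymphocytes, stood at 25.1 and 29.0 in the trnE mutants and 47.7 and 107 in the WT libraries, and Camkk2, a calcium-dependent kinase upstream of AMPK, at 55.2 and 98.6 in the trnE mutants and 147 and 211 in the WT libraries. Hpse, heparanase, which cleaves heparan sulfate, had 28.8 and 50.7 in the trnE mutants and 68.4 and 131 in the WT libraries. Apart from Umod, whose log2 fold change was -3.44 (edgeR adjusted p = 0.128), these genes differed by -1.06 to -1.45.

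Markers of other cell types were present at unequal levels, apart from those of red cells. The summed level of 15 proximal tubule genes was 1379 and 415 TMM-scaled CPM in members of trnE mutant 1 and 2 and 631 and 386 in those of WT 1 and 2. That of 7 type 1 dendritic cell genes was 2712 and 1940 in the trnE mutants and 1712 and 1657 in the WT libraries. All 7 of these dendritic cell genes were positive, and 6 lay above in both trnE mutants (20.7% of all genes). All 5 red cell genes were at 0 UMIs. Endothelial genes summed to 429 and 353 in the trnE mutants and 327 and 53.7 in the WT libraries. Their part in the gene values above was not tested.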

How the data were processed

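Single-cell suspensions of 4 mouse kidneys were measured with the 10x Genomics 3′ assay. The authors deposited filtered count matrices of 32285 genes, made with Cell Ranger 7.0.0 for the trnE mutants and 7.1.0 for WT per the file headers, on mm10 per the submitters' processing notes, so that version and genotype coincide. The values are raw UMI counts. Gene positions are GENCODE M21 (GRCm38).

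Members were gated as described, and Scrublet calls (scanpy 1.11.5) were kept: 4 and 2 among members of trnE mutant 1 and 2, and 2 and 0 in WT 1 and 2. Counts of members were summed per library and tested with edgeR 4.0.16 (TMM, filterByExpr, quasi-likelihood F test, Benjamini-Hochberg) in R 4.3.3, with DESeq2 1.42.0 as an alternative. The SE is the absolute log2 fold change over the square root of F. The difference from macrophages was an interaction with library as a block. Single values had a two-sided exact permutation test (own enumeration), shares a Clopper-Pearson interval, and thinning drew 1500 UMIs per barcode. The procedure was tested on simulated data. The labels name a mouse for each sample but not whether the suspensions were made separately or together, so p-values measure the spread between these libraries only.

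Genes were named by rule: the 10 of smallest p in each direction with a mean of at least 30 CPM and no overlap between groups (none passed the threshold), predicted genes passed over, up to 3 per list by p with at least 10 CPM, the mitochondrially encoded protein genes, 5 markers, and the 5 of smallest p for the interaction. Other genes of the MHC class II list, the subset genes and Mki67 were named after their values were seen. The members and lists were chosen with earlier results of these data known. Some genes that the rule names are not reported here.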

Additional observations from a re-analysis of the deposited data

How the results depend on the processing

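Small numbers limit these comparisons: WT 2 gave 18 members, and each group has 2 mice. The difference in the share of barcodes turned to 0.00264 percentage points without members holding Ace or Treml4 and to 0.0725 in barcodes thinned to 1500 UMIs, and ran from -1.06 to 0.740 when 1 library was left out. The difference in the mitochondrial share turned to 0.0769 without members holding Flt3, Clec10a, Siglech or Nkg7 and to 0.0265 without those holding Xcr1 or Clec9a, and ran from -0.484 to 0.289 without 1 library. That in median UMIs ran from -3504.8 to 2074.2. The cause of these turns was not tested.

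Against 0 genes higher and 0 lower, 1 gene was lower with RLE scaling, 20 were higher and 3 lower with no filter on low counts, 2 higher and 1 lower without doublet calls, 1 higher with at least 2 Ly6c2 UMIs, and 1 higher without Flt3, Clec10a, Siglech or Nkg7. Leaving out 1 library gave 0 to 24 higher and 0 to 11 lower, where the lone sample of a group is assumed to vary like the others. With the replicate number as a block 69 were higher and 65 lower. The labels give the number no meaning, deviations of same-numbered libraries correlated at r = 0.173 over 8154 genes, and with 2 pairs this is no basis for pairing. The block ratio of shares, trnE mutant over WT, was 0.403 for number 1 and 4.29 for number 2. For the difference from macrophages, 15 genes were higher and 3 lower with no filter, 1 higher without doublet calls, and 0 to 20 higher and 0 to 9 lower without 1 library.

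Of the named genes, mt-Co2 was at -0.12 with library totals and Birc5 at -0.38 with at least 2 Ly6c2 UMIs. Without Ace or Treml4, Cx3cr1 was at 0.14 and Irf8 at -0.010. Without Flt3, Clec10a, Siglech or Nkg7, Ccl5 was at -0.0220, Tubb5 -0.052, mt-Atp6 0.48, mt-Co1 0.61, mt-Co3 0.58, mt-Cytb 0.91, mt-Nd1 0.69, mt-Nd2 0.76, mt-Nd4 0.68 and mt-Nd4l 0.83. Without Xcr1 or Clec9a, Chil3 was at 0.044, Fgl2 -0.22, Irf8 -0.78, mt-Atp6 0.10, mt-Co1 0.23, mt-Co3 0.21, mt-Cytb 0.28, mt-Nd1 0.23, mt-Nd2 0.12, mt-Nd4 0.17 and mt-Nd4l 0.16. Each is a log2 fold change of opposite sign to that of the same gene in all members with TMM scaling, which is not printed above for every gene. Without 1 library, ranges crossed 0 for Birc5 (-2.74 to 7.55), Ccr2 (-0.67 to 0.28), Chil3 (-0.70 to 0.13), Hmox1 (-2.24 to 0.98), Stmn1 (-1.28 to 4.45), Tubb5 (-0.052 to 1.78), mt-Atp6 (-0.62 to 0.13), mt-Atp8 (-1.11 to 0.35), mt-Co1 (-0.25 to 0.11), mt-Co2 (-0.047 to 0.23), mt-Cytb (-0.59 to 0.40) and mt-Nd4l (-0.76 to 0.11).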
